A study of Mus musculus with 6 samples.

Results

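Fetal Leydig cells, the androgen-producing cells of the fetal testis, were taken from single cell mRNA sequencing of mouse gonads at E15.5 (embryonic day). A cell was counted as a Leydig cell when *Cyp17a1* and *Cyp11a1* together reached at least 4000 CPM (counts scaled to a total of 1000000) of its unique molecular identifiers (UMIs, tags that count captured mRNA molecules) and *Dazl*, a germ cell gene, had fewer than 5 UMIs. Cells entered the rule if the number of genes found lay above 2500 and below 9000, mitochondrial genes took under 25% of UMIs and *Hbb* genes under 20%. It kept 3172 of 29239 such cells in the XY libraries and 3172 of 39350 in all libraries. Of these Leydig cells, 1867 came from control XY gonads and 1305 from dKO XY gonads. Since *Cyp17a1*, *Cyp11a1* and *Dazl* chose the cells, their levels are given as a description without a test, and so are the levels of all genes in Leydig cells beside those in other cells. Tests were made between genotypes within Leydig cells and, in the last comparison, of the dKO effect in Leydig against interstitial cells.

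The study asked what the gonads of XY fetuses become without AMH and activin B. Control XY (Amh+/+; Inhbb+/+), dKO XY (Amh -/-; Inhbb -/-) and control XX fetuses, the last wild type for both genes, gave 2 libraries each, all from crosses of mice heterozygous for the deletions on a C57BL/6 background. Both gonads of an animal were pooled, dissociated with Dispase, collagenase and DNase, frozen until the genotype was known and thawed for capture on the 10x Genomics platform. The 2 libraries of a group are its replicates, and p-values measure only the spread between these libraries.

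Fetal Leydig cells arise among interstitial progenitors outside the testis cords, and a hedgehog signal from Sertoli cells is needed for their formation. They bring cholesterol into mitochondria, convert it to pregnenolone and then to androstenedione, and secrete INSL3, a peptide that guides testis descent. In the mouse fetus the last step to testosterone is made by HSD17B3 in Sertoli cells.

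Leydig cells were deeply covered. Their median was between 37299 and 42434 UMIs per cell in the 4 XY libraries, against 17045 to 24773 in all other cells of the same libraries, and the UMIs summed over Leydig cells came to between 26598716 and 44080433 per library. Between 22 and 74 cell barcodes were shared by any 2 of the 6 libraries, at most 0.720% of a library. Markers of red blood cells and germ cells were higher in the dKO XY than in the control XY libraries, in Leydig cells and in all other cells alike, and dKO XY 2 had lower levels of the immediate early genes that respond to dissociation. The values are given beside the results they touch.

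The rule kept 777 of 6818 cells in control XY 1, which is 11.4% with a Clopper-Pearson 95% interval of 10.7 to 12.2. In control XY 2 it kept 1090 of 8569 cells, or 12.7% (12 to 13.4). In dKO XY 1 it kept 624 of 8151 cells, or 7.66% (7.09 to 8.25), and in dKO XY 2 681 of 5701, or 11.9% (11.1 to 12.8). These intervals cover counting error only. The means of 12.1% ± 0.936 (SD, n = 2) in control XY and 9.80% ± 3.03 (SD, n = 2) in dKO XY lay closer together than the dKO XY libraries lay to each other, and dissociation also sets such shares. Among cells with less than 10% mitochondrial UMIs the order turned, with means of 8.01% ± 0.528 in control XY and 8.58% ± 1.92 in dKO XY (SD, n = 2). No cell passed the rule in control XX, at 0 of 5330 and 0 of 4781 cells, with upper limits of 0.0692% and 0.0771% by the same interval.

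The cells carried all 5 Leydig markers in every library. *Cyp17a1* (chr19:46667165-46673172 in GRCm38, the build of all positions here), the hydroxylase and lyase that leads to androgens, was at 16205 and 15210 CPM of the summed UMIs in control XY 1 and 2, against 12945 and 12085 CPM in dKO XY 1 and 2. *Cyp11a1* (chr9:58006411-58027023), which cleaves the side chain of cholesterol, was at 10069 and 9932 CPM in control XY against 7578 and 7369 CPM in dKO XY. For both genes each dKO XY library lay below each control XY library, and the median per-cell level of the 2 genes together was 25838 and 23777 CPM in control XY and 20304 and 19219 CPM in dKO XY. The 3 markers that took no part in the rule are *Insl3* (chr8:71689214-71690575), *Star* (chr8:25806555-25815982), which moves cholesterol into mitochondria, and *Hsd3b1* (chr3:98852194-98859794), the dehydrogenase and isomerase that follows CYP11A1. Each had at least 1 UMI in at least 99.5% of the Leydig cells of each library.

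The markers were also found at low levels in other cells. Endothelial cells were chosen by at least 5 UMIs of *Pecam1*, *Cdh5* and *Kdr*. They and the interstitial cells also had to hold fewer than 1000 CPM of *Cyp17a1* plus *Cyp11a1* and fewer than 5 *Dazl* UMIs. These endothelial cells had between 28.3 and 42.0 CPM of *Cyp17a1* and between 3.09 and 5.01 CPM of *Insl3*. Between 61.2% and 78.2% of the endothelial cells had at least 1 UMI of *Cyp17a1*, at median depths of 36198 to 45684 UMIs. The plot of marker levels by library and kind of cell shows Leydig cells far above both other kinds for all 5 genes. For *Cyp17a1* and *Cyp11a1* this distance was in part fixed by the choice of the cells.

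**Figure D1:**
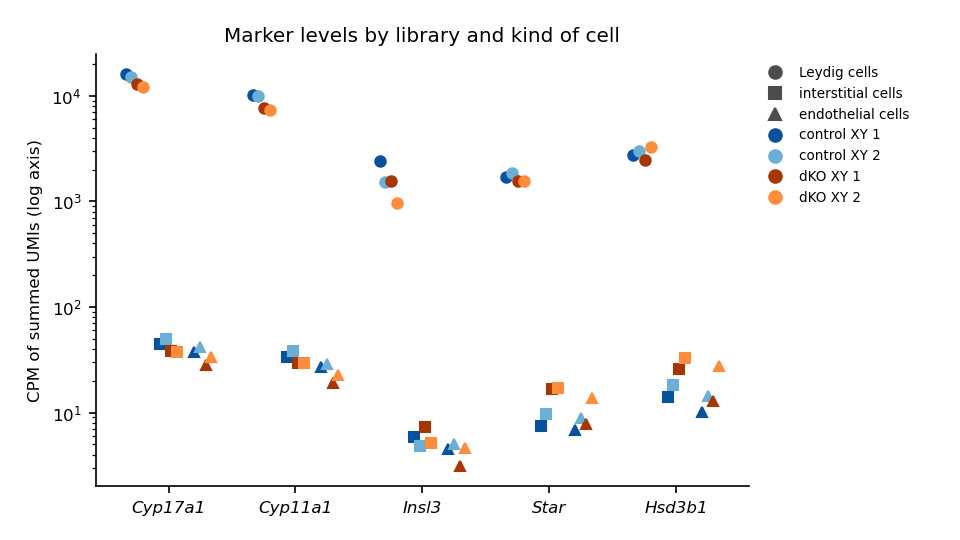
Each point is the level of a marker in one library, as CPM of UMIs summed over Leydig cells (circles), interstitial cells (squares) or endothelial cells (triangles), on a log axis and coloured by library. Leydig cells held between 956 and 16205 CPM of each marker, while no interstitial or endothelial value was above 49.8 CPM. Interstitial and endothelial cells were limited to fewer than 1000 CPM of *Cyp17a1* plus *Cyp11a1* per cell.

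The genes most restricted to Leydig cells went beyond steroid synthesis. Among the 1371 genes with at least 100 CPM in the Leydig cells of each XY library, 39 were at least 10 times as high there as in the other cells of the same library in all 4 libraries. Ranked by the lowest of the 4 ratios, *C4b*, a complement component, came next to *Cyp17a1*, at 104 to 151 times its level in other cells. *Clps*, the colipase that assists pancreatic lipase, was 104 to 181 times as high, and *Npy*, the neuropeptide Y precursor, 60.3 to 104 times. *Insl3* was 72.0 to 212 times, *Star* 56.4 to 168 times and *Hsd3b1* 43.1 to 122 times as high. The lowest ratio fell in a dKO XY library for all 5 markers. The levels of all 5 in other cells were higher in both dKO XY libraries than in control XY. These other cells included those from 1000 to 4000 CPM of *Cyp17a1* plus *Cyp11a1*, which were 49 and 55 in control XY and 105 and 105 in dKO XY.

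The rest of the 20 most restricted genes can be grouped by role. *Lhcgr*, the receptor for luteinizing hormone, was at 211 and 202 CPM in control XY against 184 and 187 CPM in dKO XY, at 38.0 to 57.3 times other cells. *Fdx1*, which passes electrons to mitochondrial cytochromes such as CYP11A1, was at 3767 to 4433 CPM, and *Alas1*, which opens heme synthesis, at 1622 to 1884 CPM. *Prkar2b*, a regulatory subunit of protein kinase A, was at 1336 to 1614 CPM. *Inha*, the alpha subunit of inhibins, was at 2096 to 2420 CPM and 29.2 to 46.4 times as high as in other cells. The alcohol dehydrogenase gene *Adh1*, the hydroxyacid oxidase gene *Hao2*, the epoxide hydrolase gene *Ephx1*, *Mgarp*, the kinase gene *Jak3*, *Mrap* and *Sez6l2* completed the 20 with between 102 and 436 CPM each. None of the 20 that could be tested passed the test between dKO XY and control XY at an edgeR adjusted p under 0.05, and their lowest adjusted p was 0.0657 (*Ephx1*).

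Genes usually tied to the adrenal cortex were also found in these cells. *Cyp21a1*, the adrenal steroid hydroxylase, was at 62.2 to 103 CPM and *Cyp11b1*, which makes corticosterone, at 64.7 to 133 CPM, while endothelial cells held at most 0.497 CPM of each. *Mc2r*, the receptor for corticotropin, was at 17.7 to 27.8 CPM, and *Mrap*, the accessory protein that carries it to the membrane, at 102 to 120 CPM. *Cyp11b2*, the aldosterone synthase gene, had at most 0.0227 CPM. *Hsd17b3* (chr13:64058266-64089230), which makes testosterone, was at 2.51 to 6.01 CPM and not above the 1.84 to 8.65 CPM of endothelial cells.

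Leydig cells differed widely among themselves in steroidogenic level. To compare cells at equal depth, each was thinned to 6000 of its UMIs, which left out none. The middle 90% of cells then ran from 23.6 to 162 *Cyp17a1* UMIs in control XY 1 and from 18.0 to 132 in dKO XY 2, with medians of 93, 86, 75 and 72 UMIs in control XY 1, control XY 2, dKO XY 1 and dKO XY 2. *Insl3* had medians of 14 and 9 UMIs in control XY and 9 and 5 in dKO XY. *Star* had medians of 7 and 8 UMIs in both genotypes. *Hsd3b1* had medians of 16 and 17 UMIs in control XY and 14.5 and 19 in dKO XY. The spread between cells of a library exceeded the shift between libraries for each marker.

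**Figure D2:**
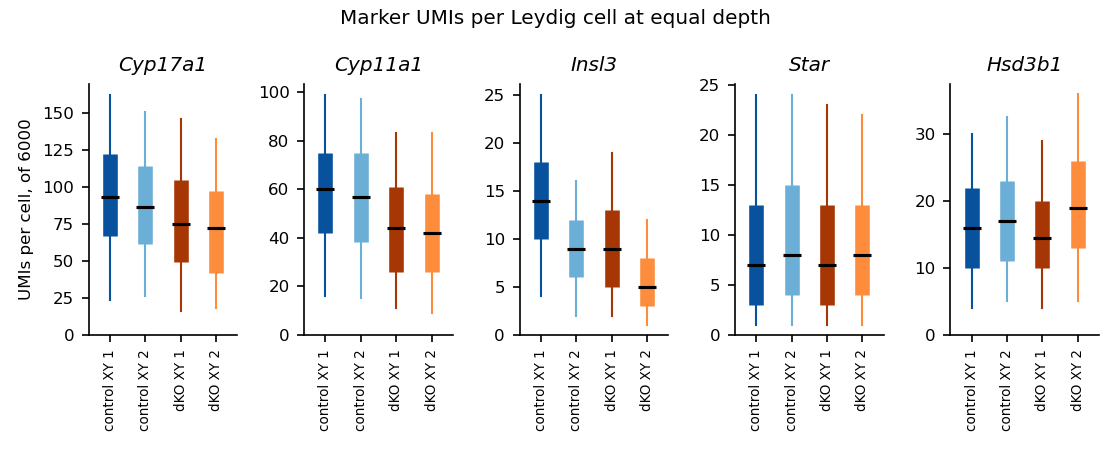
UMIs of each marker per Leydig cell after thinning every cell to 6000 UMIs, by library. Black ticks are medians, thick bars the middle 50% and thin lines the middle 90% of cells. The *Cyp17a1* medians lie between 72 and 93 UMIs, and the *Insl3* medians between 5 and 14.

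Pairs of marker genes were positively correlated across cells. Pearson's r was taken across the cells of a library on the logarithm of 1 plus the thinned UMIs. For *Cyp17a1* and *Star* it was 0.64 and 0.67 in control XY (777 and 1090 cells). In dKO XY it was 0.56 and 0.61 (624 and 681 cells). *Cyp11a1* and *Insl3* gave 0.57 and 0.55 in control XY and 0.51 and 0.55 in dKO XY. *Cyp17a1* and *Hsd3b1* gave 0.53 and 0.52 in control XY and lower values of 0.27 and 0.47 in dKO XY. Among the pairs without a gene of the rule, *Insl3* and *Star* gave 0.39 and 0.40 in control XY with 0.43 and 0.43 in dKO XY, and *Insl3* and *Hsd3b1* 0.32 and 0.34 with 0.26 and 0.37. *Star* and *Hsd3b1* gave 0.42 and 0.41 with 0.29 and 0.38. Cells of a library share its preparation, and these values are descriptions.

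When the cells of each library were split into 4 equal groups by their *Cyp17a1* and *Cyp11a1* level, whole gene programs changed along it. From the lowest to the highest group, median mitochondrial shares went from 5.02% to 11.1% and from 6.36% to 13.4% in control XY. In dKO XY they went from 4.58% to 8.27% and from 5.91% to 10.2%. Median UMIs per cell went from 35072 to 48051 and from 29615.5 to 42447 in control XY. In dKO XY these medians went from 35585 to 40848 and from 42356.5 to 41207. The summed level of 28 cholesterol synthesis and uptake genes went from 6610 CPM in the lowest group to 21124 CPM in the highest in control XY 1, and from 5030 to 15574 CPM in dKO XY 2. *Fdps*, which makes farnesyl pyrophosphate, went from 1120 to 4752 CPM in control XY 1 and from 721 to 3389 CPM in dKO XY 2. *Cyp11b1* went from 2.06 to 149 CPM in control XY 1, from 5.90 to 200 CPM in control XY 2, from 8.15 to 283 CPM in dKO XY 1 and from 13.2 to 285 CPM in dKO XY 2. *Inha* went from 983 to 3307 CPM in control XY 1, and *Star* from 536 to 2635 CPM, with like ranges in the other libraries. Both the adrenal-type and the cholesterol genes were thus most abundant in the cells with the highest steroidogenic level in all 4 libraries.

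The opposite order held for proliferation and progenitor genes. The 16 mitosis genes summed to 1209, 1129, 1384 and 1665 CPM in the lowest group of control XY 1, control XY 2, dKO XY 1 and dKO XY 2 and to 67.0, 62.9, 92.9 and 95.1 CPM in the highest. Interstitial progenitor and matrix genes summed to 3723 and 3886 CPM in the lowest group of control XY and to 1858 and 2265 CPM in that of dKO XY. In the highest group they summed to 582 and 631 CPM in control XY and to 585 and 531 CPM in dKO XY, so that the genotypes lay apart in the lowest group and overlapped in the highest. The groups were made within each library and do not cover the same levels, since the lowest group ended at 18561 and 17317 CPM of *Cyp17a1* plus *Cyp11a1* in control XY against 12813 and 11775 CPM in dKO XY. *Col1a2*, a chain of collagen I, went from 759 to 45.9 CPM in control XY 1, and *Tcf21*, an interstitial transcription factor, from 170 to 11.4 CPM. *Ren1*, the renin gene, followed neither order in control XY, at 4931 CPM in the lowest and 5919 CPM in the highest group of control XY 1.

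**Figure D3:**
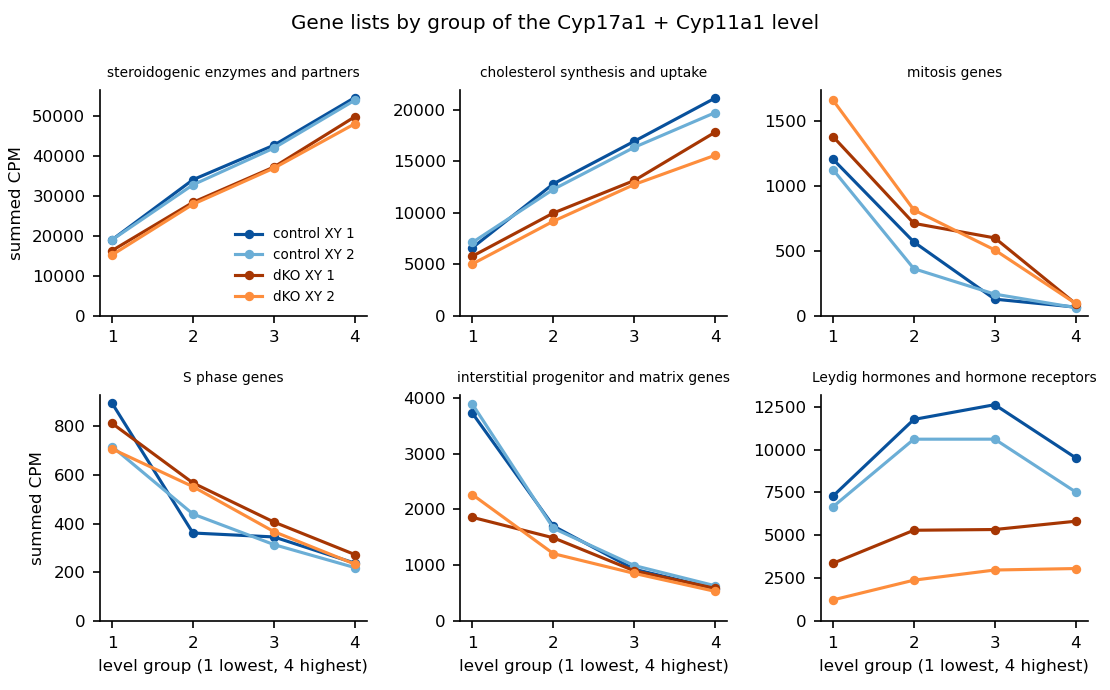
Summed CPM of 6 gene lists in 4 groups of the Leydig cells of each library, ordered from the lowest to the highest *Cyp17a1* plus *Cyp11a1* level, coloured by library. The steroidogenic list contains both genes that made the groups, so its increase is fixed by the split. Cholesterol genes increase and mitosis, S phase and interstitial genes decrease along the groups, and the list of hormones and hormone receptors, in which *Ren1* is the most abundant gene, is lower in both dKO XY libraries in each group.

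Beyond the mitochondrial genes and *Malat1*, a nuclear noncoding RNA, the genes that varied most between cells at equal depth were hormone, lipid and steroid genes. The variance over the mean of thinned UMIs had a median between 1.12 and 1.14 over 1371 genes. For *Ren1* it was 32.9 and 29.1 in control XY and 17.8 and 12.4 in dKO XY. For *Clps* it was 25.9 and 24.6 in control XY and 10.8 and 15.6 in dKO XY, and for *Npy* 7.14, 15, 8.15 and 7.56 in the order given above. *Inha*, *Fdps*, *Fdx1*, *Star* and *Fabp3*, a fatty acid binding protein gene, lay between 5.03 and 8.85. The unnamed transcript *RP23-81C12.3* lay between 9.05 and 16.5. Variance over the mean also depends on the level of a gene. *Ren1* was at 7030 and 6433 CPM in control XY against 2788 and 766 CPM in dKO XY. Its lower values in dKO XY are therefore no measure of a smaller relative spread between cells.

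Some Leydig cells of each library held mitosis transcripts. With at least 3 UMIs of the 16 mitosis genes among 6000, 12.6% and 10.8% of Leydig cells were counted in control XY and 21.3% and 22.5% in dKO XY, with means of 11.7% ± 1.26 and 21.9% ± 0.815 (SD, n = 2). Without thinning the shares were 52.9% and 55.0% in control XY and 71.8% and 85.2% in dKO XY. Their share was highest in the lowest group, where they made up 32.5% and 27.9% of cells in control XY and 38.5% and 49.4% in dKO XY, against 0.733% to 5.26% in the highest. These shares are counts of cells with the transcripts and not calls of a cell phase. Exactly 3 such UMIs were found in 17, 21, 30 and 34 cells and exactly 2 in 43, 101, 50 and 80 cells, in the order above. Endothelial cells held more of *Mki67* (166 to 233 CPM) than Leydig cells did, and the part of RNA from other cells in the shares was not tested. The mitosis-positive cells had less *Cyp17a1* (9526 against 17327 CPM in control XY 1 and 7858 against 13448 CPM in dKO XY 2) and more *Pdgfra*, the receptor that marks interstitial progenitors (84.0 against 20.6 CPM and 54.8 against 11.1 CPM). *Cdkn1c*, a CDK inhibitor gene, was lower in them, at 959 against 1313 CPM in control XY 1 and at 1380 against 2116 CPM in dKO XY 2.

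The threshold cut through few cells. Between 3000 and 4000 CPM of *Cyp17a1* plus *Cyp11a1* lay 11, 17, 15 and 32 cells of the 4 libraries in the order above, and between 4000 and 5000 CPM lay 13, 16, 25 and 31 cells. Cells from 2000 to 4000 CPM had 453 and 340 CPM of *Insl3* in control XY and 361 and 239 CPM in dKO XY. Cells from 4000 to 6000 CPM had 754 and 401 CPM in control XY and 566 and 389 CPM in dKO XY. Just inside the threshold, *Tcf21* was at 316 and 220 CPM in control XY against 72.7 and 63.8 CPM in dKO XY. *Dazl* kept out 0, 1, 6 and 8 cells.

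Between genotypes, UMIs were summed over the Leydig cells of each library and compared with edgeR's quasi-likelihood test, with Benjamini-Hochberg adjustment over all genes tested and calls at an adjusted p under 0.05. Of 14533 genes, 575 (3.96%) passed, 366 (2.52%) with higher and 209 (1.44%) with lower values in dKO XY, and 211 and 63 of these differed at least 2-fold. An unadjusted edgeR p under 0.05 was found for 2672 of the 14533, and list counts at that limit stand beside this. List counts under other settings stand beside the rises and falls of all genes tested there. DESeq2 gave 429 and 296 of 21399, no filter on low counts 1025 and 742 of 21399, and a replicate block 860 and 617 of 14533. A rule of at least 2000 CPM gave 571 and 302 of 14667, and at least 8000 CPM gave 246 and 122 of 14292. When only cells from 15000 to 30000 CPM of *Cyp17a1* plus *Cyp11a1* were compared, a range chosen after seeing the data because the dKO XY cells had a lower level, 210 genes passed and 152 of the 575 were among them. Of 13168 to 14060 genes tested in such subsets of cells, 133 rose and 77 fell in this range. Under 10% mitochondrial UMIs 295 rose and 223 fell, and without likely doublets 489 and 289. Without cells with a germ cell UMI 247 rose and 143 fell. Without cells holding 5 or more mitosis UMIs before thinning, called cycling cells below, 200 rose and 109 fell. That kept 556 of 777 and 755 of 1090 Leydig cells in control XY, but 329 of 624 and 264 of 681 in dKO XY. A fit without 1 library leaves a group with 1 library and no spread of its own. Calls and counts from such fits, given below, show dependence on single libraries and are no replicated tests.

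Of the targeted genes, *Inhbb* (chr1:119415465-119422248), which encodes the activin B subunit, was at 56.8 and 69.2 CPM in control XY Leydig cells and at 12.1 and 21.9 CPM in dKO XY. It fell by 1.90 ± 0.229 on the log2 scale (SE, n = 2 against 2, edgeR adjusted p = 0.00797), and endothelial cells of the dKO XY libraries held 8.23 and 10.6 CPM. *Amh* was at 12.6 and 41.5 CPM in control XY against 12.9 and 21.2 CPM in dKO XY, and did not pass the test. Whether the reads of either gene fall within its deleted part is not given in the sources used here. *Amh* in the endothelial cells of control XY was at 18.2 and 36.8 CPM, like its level in Leydig cells.

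Among the 12 largest rises of genes with a mean log2 CPM of 5 or more, *Hbb-bs* and *Kctd14* led and are described after the others. *Mal* (chr2:127633226-127656695), a membrane raft protein gene, was at 90.7 and 68.1 CPM in control XY against 244 and 200 CPM in dKO XY (log2 1.47 ± 0.164, edgeR adjusted p = 0.00588). Endothelial and interstitial cells held at most 1.57 CPM of it. *Mapk13* (chr17:28769297-28780233), which encodes a p38 kinase, went from 18.7 and 23.3 to 60.9 and 79.0 CPM (1.72 ± 0.146, edgeR adjusted p = 0.00203). *Aqp5* (chr15:99590782-99594829), a water channel gene, went from 22.8 and 24.3 to 70.9 and 100.5 CPM (1.84 ± 0.151, edgeR adjusted p = 0.00179), above the 16.7 and 22.6 CPM of dKO XY endothelial cells. *Kitl* (chr10:100015630-100100416), the ligand of the KIT receptor, went from 35.2 and 38.7 to 78.7 and 77.6 CPM (1.06 ± 0.0947, edgeR adjusted p = 0.00239). Endothelial cells held more *Kitl*, at 81.0 and 97.4 CPM in control XY and 169 and 161 CPM in dKO XY, and the part of their RNA in this rise was not tested. These 4 genes passed under all 15 alternative settings.

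Others of the 12 largest rises were *Serpinb6b*, a protease inhibitor gene (58.3 and 69.4 to 144 and 159 CPM), and *Ckb*, brain-type creatine kinase (24.6 and 24.0 to 48.6 and 49.8 CPM). *Ifitm1*, an interferon-induced membrane protein gene, went from 31.6 and 24.1 to 72.3 and 65.7 CPM, below its level in interstitial cells. *Ube2c*, a ubiquitin-conjugating enzyme of mitosis, went from 61.5 and 46.6 to 107 and 109 CPM. The transcripts *RP24-337D17.1* and *RP23-81C12.3* rose by 1.05 and 1.06 on the log2 scale and had higher levels in interstitial cells. Among cells from 15000 to 30000 CPM the calls of *Hbb-bs*, *Kctd14*, *Ifitm1*, *Ube2c* and *RP24-337D17.1* are lost. Their log2 changes there are 3.72, 1.40, 0.82, 0.67 and 0.83, against 3.56, 2.00, 1.29, 0.98 and 1.05 among all Leydig cells. Without cells holding 5 or more mitosis UMIs the calls of *Hbb-bs* (3.37) and *Ube2c* (0.22) are lost. For the 2 leading rises, endothelial cells of the same dKO XY libraries held similar levels, and the part of RNA from other cells was not tested. *Hbb-bs*, a beta globin gene, was at 4, 9.07, 108 and 49.3 CPM in Leydig cells and at 4.51, 10.6, 138 and 72.3 CPM in endothelial cells, in the order control XY 1, control XY 2, dKO XY 1 and dKO XY 2. *Kctd14* (chr7:97451323-97459557), which is abundant in granulosa cells, was at 42.4, 50.6, 130 and 247 CPM in Leydig cells and at 13.6, 29.1, 118 and 252 CPM in endothelial cells.

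The largest falls by the same limit are given next, after *Inhbb*. *Gsta2* (chr9:78331018-78355788), a glutathione transferase gene, was at 135 and 125 CPM in control XY against 50.4 and 50.5 CPM in dKO XY (log2 -1.38 ± 0.0922, edgeR adjusted p = 0.000755). *Cxcl12* (chr6:117168535-117181367), a chemokine gene, went from 114 and 104 to 48.5 and 46.4 CPM (-1.22 ± 0.0991, edgeR adjusted p = 0.00179). *Nts* (chr10:102481756-102490486), the neurotensin precursor, went from 88.6 and 74.3 to 35.8 and 36.3 CPM (-1.19 ± 0.111, edgeR adjusted p = 0.00285). *Agt* (chr8:124556534-124569706), which encodes the angiotensin precursor that renin cleaves, went from 143 and 115 to 65.8 and 65.3 CPM (-0.99 ± 0.122, edgeR adjusted p = 0.0083). *H2-K1*, a class I histocompatibility gene, went from 138 and 130 to 71.1 and 68.3 CPM, and was at most 4.14 CPM in interstitial cells. *Dlk1*, *Nrk*, *Col1a1*, *Mfap4* and *Hist1h2bc*, a histone H2B gene, also fell, at log2 changes between -1.14 and -0.94. *Col1a1* and *Mfap4* were called under 11 of 15 alternative settings, with calls lost at 8000 CPM, without cells holding 5 or more mitosis UMIs, without cells with a germ cell UMI and among cells from 15000 to 30000 CPM. The call of *Dlk1* is lost without cells holding 5 or more mitosis UMIs, at a log2 change of -1.24 ± 0.312. That of *H2-K1* is lost under 10% mitochondrial UMIs, at -0.54 ± 0.145.

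The groups by *Cyp17a1* and *Cyp11a1* level, whose upper bounds were lower in dKO XY, gave different contrasts for *Cxcl12*. In the lowest group *Cxcl12* was at 298 and 298 CPM in control XY against 72.9 and 104 CPM in dKO XY, and in the highest group at 18.2 and 18.7 CPM and at 16.2 and 13.0 CPM. *Mal* was higher in dKO XY at both ends, at 97.7 and 85.3 against 241 and 182 CPM in the lowest and at 56.1 and 36.3 against 184 and 146 CPM in the highest group.

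**Figure D4:**
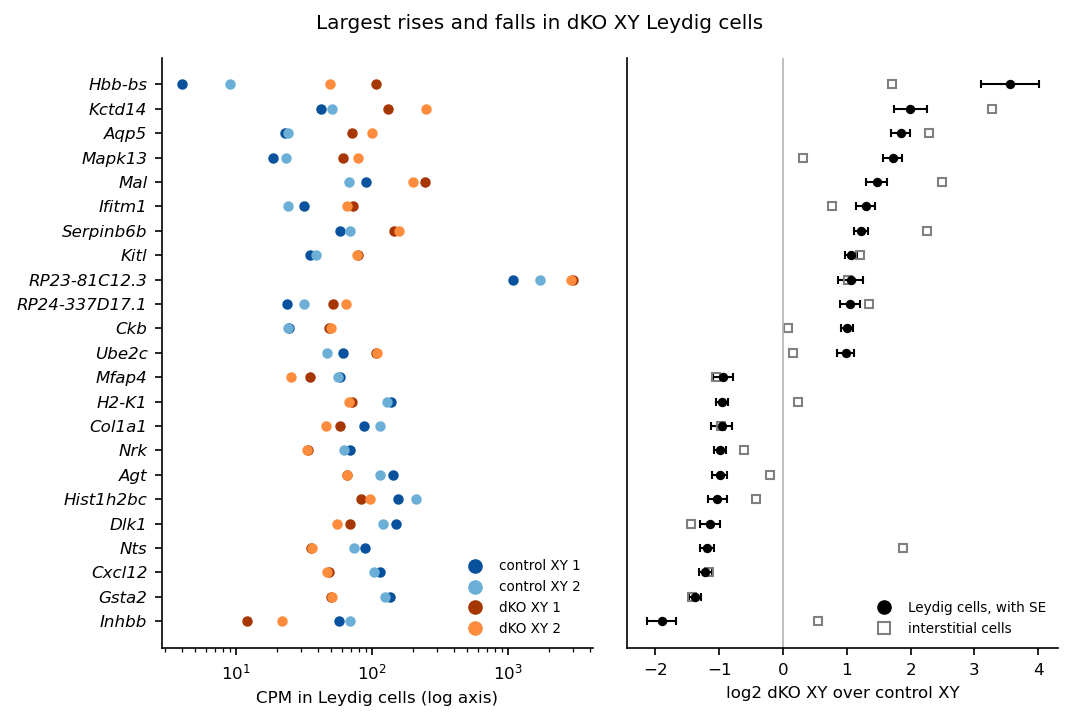
Left, CPM of the 12 largest rises and of the largest falls reported here in the Leydig cells of each library, on a log axis. Right, log2 of dKO XY over control XY in Leydig cells (black, with SE) and in interstitial cells of the same libraries (grey squares). The genes were chosen for their difference between the genotypes. *Nts* falls by 1.19 in Leydig cells while its interstitial value is 1.89.

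Genes of steroid synthesis moved in both directions. Of the 15 genes tested among steroidogenic enzymes and partners, 1 rose, 1 fell and 13 did not pass, a called share of 13.3% beside 3.96% of all genes, and their median log2 change was -0.02, against -0.01 over all genes tested. *Star* was at 1697 and 1868 CPM in control XY against 1552 and 1573 CPM in dKO XY (-0.21 ± 0.0915, edgeR adjusted p = 0.285). *Hsd3b1* was at 2760 and 2983 CPM in control XY against 2489 and 3240 CPM in dKO XY (-0.02 ± 0.121, edgeR adjusted p = 0.948), and its groups overlapped. *Fdx1* and *Akr1cl*, an aldo-keto reductase gene, had log2 changes of -0.11 and 0.14. *Hsd17b1*, a reductase gene with a weak signal here, fell from 13.8 and 18.3 to 6.69 and 4.77 CPM, and *Tspo*, a mitochondrial outer membrane protein gene, rose from 72.8 and 66.7 to 108 and 105 CPM, a call that is lost without control XY 2. The call of *Hsd17b1* is lost under 10% mitochondrial UMIs and among cells from 15000 to 30000 CPM, and its log2 change ran from -1.80 to -0.71 over 15 alternative settings. Of the 4 adrenal-type genes tested by edgeR none passed, 1 had an unadjusted p under 0.05, and DESeq2 called 1. Without dKO XY 1, 2 of them rose, without control XY 2 1 rose, among cells with less than 10% mitochondrial UMIs 3 rose, without likely doublets 2 and among cells from 15000 to 30000 CPM 1.

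Hormone and receptor genes were mostly lower. Of 14 tested, 13 lay below 0 and 4 fell, beside 1.44% of all genes that fell, with a median log2 change of -0.42. Besides *Agt*, these included *Prlr*, the prolactin receptor gene (311 and 315 to 193 and 219 CPM), and *Esr1*, estrogen receptor alpha (35.9 and 37.1 to 19.5 and 25 CPM). *Ren1* (chr1:133350510-133360325) was at 7030 and 6433 CPM in control XY against 2788 and 766 CPM in dKO XY. Its groups did not overlap. The dKO XY libraries differed so much that the log2 change of -1.92 ± 0.496 did not pass (edgeR adjusted p = 0.0798). This change ran from -3.18 to -1.27 over 15 alternative settings. With all libraries kept, *Ren1* was called only with no filter on low counts, with a replicate block and without likely doublets. *Insl3* was at 2391 and 1536 CPM in control XY against 1548 and 956 CPM in dKO XY (-0.66 ± 0.265, edgeR adjusted p = 0.237), with 1 dKO XY library above the lower control XY library. Its log2 change was -0.31 without control XY 1, -0.34 without dKO XY 2, -0.95 without control XY 2 and -1.08 without dKO XY 1. With all libraries kept, *Insl3* was called only with no filter on low counts and with a replicate block. *Lhcgr*, the luteinizing hormone receptor gene, had a log2 change of -0.17 ± 0.0872.

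Cholesterol genes were mostly lower in dKO XY. Of the 28 tested, 26 lay below 0 and 6 fell, beside 1.44% of all genes, with a median log2 change of -0.40. *Dhcr7*, which makes the last step to cholesterol, fell from 552 and 528 to 345 and 316 CPM (-0.72 ± 0.0988, edgeR adjusted p = 0.0108), and *Lss*, lanosterol synthase, from 244 and 257 to 151 and 160 CPM. *Mvd* and *Nsdhl*, enzymes of the pathway, and *Sqle*, squalene epoxidase, also fell, but none of these 3 is called without control XY 1, nor *Sqle* without control XY 2. Among cells from 15000 to 30000 CPM of *Cyp17a1* plus *Cyp11a1* none passed, 20 of 28 lay below 0 and the median was -0.14. Among cells with less than 10% mitochondrial UMIs none passed either, with a median of -0.12. The count was 18 with DESeq2, beside 296 falls among all 21399 genes it tested. It also changed strongly when single libraries were left out.

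Of 20 interstitial and matrix genes tested, 15 lay below and 5 above 0. Of these 6 fell, beside 1.44% of all genes, and 14 did not pass, with a median log2 change of -0.45. The 6 were *Dlk1* (150 and 120 to 68.6 and 55.1 CPM), *Sostdc1*, a secreted antagonist gene (21.3 and 18.9 to 11.5 and 7.11 CPM), *Col1a1*, *Col1a2* (284 and 292 to 186 and 199 CPM), *Nr2f2*, an orphan nuclear receptor gene of interstitial cells (144 and 142 to 85.7 and 109 CPM), and *Pdgfra* (29.7 and 30.5 to 20.1 and 21.7 CPM), which is not called without either control XY library. Interstitial cells of the same libraries had 1354, 1102, 505 and 410 CPM of *Dlk1* and 1578, 1519, 867 and 720 CPM of *Col1a1*. The sum over the 8 interstitial markers was 761 and 781 CPM in control XY Leydig cells and 513 and 563 CPM in dKO XY, and 5195, 4765, 2498 and 2579 CPM in all other cells. The part of RNA from interstitial cells in these falls was not tested. Under 10% mitochondrial UMIs 10 of the 20 fell, and without likely doublets 11. Without cells holding 5 or more mitosis UMIs 2 fell and 2 rose. With a replicate block 9 fell and 2 rose, and with no filter on low counts 10 fell and 2 rose. With a rule of at least 2000 CPM 6 fell and 1 rose. Of 20 Leydig and interstitial transcription factors, *Wt1* rose from 4.4 and 8.08 to 19.9 and 21.9 CPM, below its 57.6 to 147 CPM in endothelial cells, and *Nr2f2* fell, a called share of 10% beside 3.96% of all genes. Between 2 and 4 of them fell when a library was left out, 4 of them without dKO XY 1 or without dKO XY 2, and 4 fell under 10% mitochondrial UMIs. *Nr5a1*, the steroidogenic master factor, was at 266 and 293 CPM in control XY against 192 and 285 CPM in dKO XY.

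In the AMH and activin pathway, 2 of 29 genes rose and 2 fell, a called share of 13.8% beside 3.96% of all genes. The rises numbered 5 without control XY 1, without control XY 2 or without dKO XY 2, and the falls between 1 and 3 when a library was left out. *Amhr2*, the AMH receptor gene, rose from 14.0 and 17.2 to 34.9 and 31.9 CPM, while dKO XY endothelial cells had 28.7 and 49.2 CPM. *Fst*, follistatin, rose from 1.03 and 0.817 to 3.38 and 3.09 CPM, below dKO XY endothelial cells. Its call is lost without cells holding 5 or more mitosis UMIs, without cells with a germ cell UMI and among cells from 15000 to 30000 CPM, with log2 changes from 0.56 to 2.07 over 15 alternative settings. Besides *Inhbb*, *Acvr1*, a type I receptor gene, fell from 27.0 and 26.6 to 19.9 and 19.0 CPM, a call lost without either control XY library. *Inha* had a log2 change of -0.02 ± 0.107 and an edgeR adjusted p of 0.959. *Id1*, a target of BMP signals, was at 69.6, 59.7, 226 and 61.9 CPM and *Id3* at 40.7, 48.1, 136 and 40.5 CPM, and both were highest in dKO XY 1 alone.

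Paracrine signals changed at a few members. Of 18 PDGF, VEGF, IGF and KIT signal genes, *Kitl* rose and *Cxcl12*, *Kit* and *Pdgfra* fell, a called share of 22.2% beside 3.96% of all genes. The call of *Pdgfra* is lost without either control XY library. Without control XY 2, 3 rose and 2 fell, and without dKO XY 1, 2 rose and 5 fell. *Kit*, the receptor gene, was at 69.8 and 63.8 CPM in control XY against 40.5 and 41.8 CPM in dKO XY (-0.72 ± 0.0935, edgeR adjusted p = 0.00993), and its call held under all 15 alternative settings. Of 11 hedgehog receptors and targets none passed with edgeR or DESeq2, and 1 had an unadjusted p under 0.05, while 1 fell without control XY 2 or without dKO XY 1. *Ptch1*, the hedgehog receptor and target gene, was at 49.2 and 55.7 CPM in control XY against 55.5 and 56.7 CPM in dKO XY, and *Gli1*, a target, at 7.02 and 7.80 CPM and at 5.94 and 6.93 CPM. In clearance and redox, *Gsta2* and *Gsta3* (154 and 175 to 109 and 102 CPM) fell and *Gstm2* rose from 88.4 and 101 to 161 and 166 CPM, of 16 tested, a called share of 18.8% beside 3.96% of all genes. The call of *Gsta3* is lost among cells from 15000 to 30000 CPM and under 10% mitochondrial UMIs, and its log2 change ran from -0.74 to 0.08 over 15 alternative settings.

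Mitosis genes were the list with the largest share of calls. All 16 lay above 0, 13 rose, beside 2.52% of all genes, and 3 (*Top2a*, *Ccna2* and *Aurkb*) did not pass, with a median log2 change of 0.81. *Plk1*, a mitotic kinase gene, rose from 7.22 and 7.08 to 12.3 and 16.2 CPM (0.98 ± 0.146, edgeR adjusted p = 0.0146), *Cdk1*, the kinase that drives mitosis, from 38.2 and 30.3 to 58.2 and 58.5 CPM, and *Mki67*, a proliferation marker, from 33.3 and 31.0 to 47.0 and 65.6 CPM. Other cells of the same libraries had summed levels of 2279 and 2308 CPM in control XY and 2206 and 2465 CPM in dKO XY, against 453, 383, 688 and 760 CPM in Leydig cells. Some restrictions of the cells removed most calls. Among cells from 15000 to 30000 CPM none passed and all 16 lay above 0, with a median of 0.46, and among cells with less than 10% mitochondrial UMIs 1 passed, with a median of 0.43. Without likely doublets 14 rose (median 0.83), with a rule of at least 8000 CPM 8 (0.80), and without cells with a germ cell UMI 7 (0.72). Of 16 S phase genes none passed with edgeR and 14 lay above 0, with a median of 0.37. An unadjusted p under 0.05 was found for 8, beside 2672 of all 14533 genes. DESeq2 called 1 of the S phase genes. With edgeR 8 of them rose with a replicate block, 6 with no filter on low counts, 3 with a rule of at least 2000 CPM and 0 with at least 8000 CPM. Without dKO XY 2, 6 of them rose. *Ccnd1*, cyclin D1, rose from 2.37 and 3.88 to 24.5 and 22.0 CPM (2.86 ± 0.208, edgeR adjusted p = 0.00118), while endothelial cells had 113 to 326 CPM.

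Since the mitosis genes moved together, the promoters of 3 of them are shown. Many late cell cycle genes carry a CHR element (TTTGAA) near their start, and a CCAAT box is frequent beside it. RefSeq promoters (GRCm38.p6, 250 bases before the start) were matched for 13 of the 16 genes. On either strand TTTGAA was found in 6 of 13, against 16.0% of 32851 promoters, CCAAT in 12 of 13, against 33.8%, and both in 6 of 13, against 5.55%. Capitals below mark both motifs, written as TTCAAA or ATTGG where they lie on the other strand, and the search allowed overlaps. *Ube2c* lies before the start at chr2:164769679-164769928 on the plus strand, *Cdc20*, an activator of the anaphase complex, at chr4:118437344-118437593 on the minus strand, and *Cdk1* at chr10:69352913-69353162 on the minus strand. A match describes the sequence and was not tested for binding.
Ube2c: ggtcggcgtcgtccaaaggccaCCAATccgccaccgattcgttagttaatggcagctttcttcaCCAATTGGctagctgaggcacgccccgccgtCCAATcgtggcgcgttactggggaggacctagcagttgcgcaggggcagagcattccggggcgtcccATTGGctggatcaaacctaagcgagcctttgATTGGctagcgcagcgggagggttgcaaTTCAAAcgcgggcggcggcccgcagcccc
Cdc20: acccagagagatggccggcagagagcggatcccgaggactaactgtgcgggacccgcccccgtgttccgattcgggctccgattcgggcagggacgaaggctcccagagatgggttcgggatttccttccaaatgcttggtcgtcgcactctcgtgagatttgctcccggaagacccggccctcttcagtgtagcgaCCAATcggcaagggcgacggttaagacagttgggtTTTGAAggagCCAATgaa
Cdk1: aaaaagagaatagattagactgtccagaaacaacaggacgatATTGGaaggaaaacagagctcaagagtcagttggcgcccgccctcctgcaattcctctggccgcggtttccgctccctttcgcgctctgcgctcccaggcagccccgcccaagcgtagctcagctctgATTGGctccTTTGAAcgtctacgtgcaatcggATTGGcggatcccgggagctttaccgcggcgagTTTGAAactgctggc

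**Figure D5:**
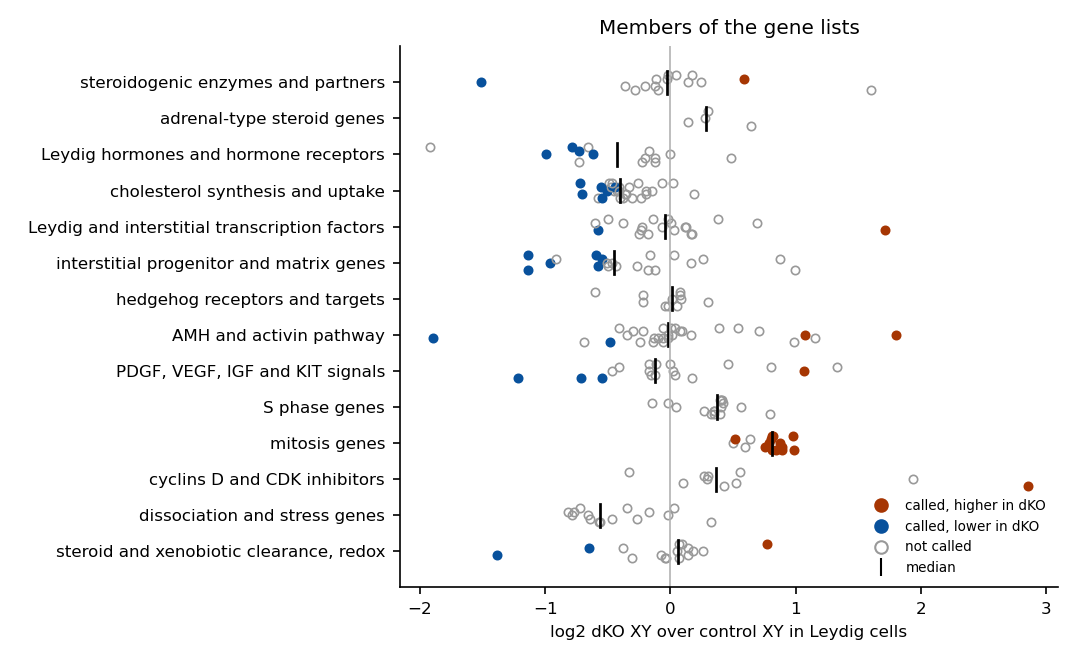
Each point is the log2 of dKO XY over control XY for a tested member of a gene list in Leydig cells, filled where it passed the test (red-brown higher, blue lower in dKO XY) and open where it did not, and black bars are list medians. The 16 mitosis genes all lie above 0 with a median of 0.81, and the cholesterol genes cluster around -0.40.

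Markers of other cells were present at low levels and several differed between genotypes. Their counts of rises stand beside 2.52% of all genes. Granulosa markers rose at 5 of 8 (*Irx3*, *Kctd14*, *Fst*, *Runx1* and *Rspo1*), with sums of 176 and 185 CPM in control XY and 267 and 369 CPM in dKO XY Leydig cells. Among cells from 15000 to 30000 CPM none rose and 1 fell, without cells holding 5 or more mitosis UMIs 1 rose, and without cells with a germ cell UMI 2 rose. *Rspo1* is not called without either control XY library. *Foxl2*, the defining granulosa factor, was at 0.885, 0.567, 1.62 and 2.34 CPM and did not pass, and dKO XY endothelial cells had 2.53 and 4.87 CPM. Germ cell markers rose at 5 of 7 tested, with sums of 6.11, 6.03, 23.2 and 32.2 CPM, and erythroid markers at 4 of 7, with sums of 14.2, 25, 306 and 134 CPM. In all other cells the germ sums were 23.8, 20.3, 449 and 389 CPM and the erythroid sums 101, 190, 627 and 475 CPM, so both moved the same way outside Leydig cells. Epithelial markers rose at 2 of 5, with sums of at most 9.96 CPM. Of 8 Sertoli markers *Aard* rose, and *Defb19* and *Clu* of that list were at 612 to 963 CPM in Leydig cells themselves. Of 7 endothelial, 8 immune and 6 pericyte markers none passed with edgeR, with 7, 0 and 1 at an unadjusted p under 0.05, and DESeq2 called 3, 0 and 0. All 7 endothelial markers lay above 0, with a median log2 change of 1.24. With all libraries kept, 7 of them rose with no filter on low counts, 6 with a replicate block and 3 with a rule of at least 2000 CPM. With at least 8000 CPM 0 rose. With no filter 1 immune marker fell and 2 pericyte markers rose. The counts also changed when single libraries were left out. Endothelial markers rose at 5 without control XY 2, at 4 without dKO XY 1 and at 1 without either control XY 1 or dKO XY 2. Immune markers fell at 6 of 8 without dKO XY 1 and at 1 without control XY 2, and rose at 2 without dKO XY 2. Of the pericyte markers 1 rose without control XY 2 or without dKO XY 2, and 1 fell without dKO XY 1. Without control XY 2, 5 of 6 epithelial and 4 of 8 Sertoli markers rose, without control XY 1 1 Sertoli marker fell, and without dKO XY 2 3 of 7 germ cell markers rose. None of the marker lists had a gene at 0 in all 4 libraries. When cells with a UMI of *Dazl*, *Ddx4*, *Dppa5a* or *Mael* were left out, a choice made after seeing the data, 390 genes passed and 357 of the 575 were among them. This kept 677 of 777 and 981 of 1090 Leydig cells in control XY, but 394 of 624 and 323 of 681 in dKO XY. Calls lost by this step come with the loss of a larger part of the dKO XY cells.

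The sum of immediate early genes was lower in dKO XY 2 than in dKO XY 1 and control XY, and library and genotype cannot be told apart here. The 15 dissociation and stress genes summed to 4696 and 4720 CPM in control XY, 4686 CPM in dKO XY 1 and 1497 CPM in dKO XY 2. *Fos* was at 1466, 1165, 1517 and 260 CPM. Of the 15, 13 lay below 0 with a median log2 change of -0.57, and 10 fell with no filter on low counts. In the edgeR fit of all Leydig cells with that filter none of the 15 passed, nor did any with DESeq2. Beside 2672 of all 14533 genes, 3 of the 15 had an unadjusted p under 0.05. Of them, 11 fell without dKO XY 1, 7 without control XY 1 and 4 without control XY 2, while 1 rose without dKO XY 2.

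To see which changes differed from those of the surrounding tissue, the dKO effect in Leydig cells was compared with that in interstitial cells of the same libraries in an interaction fit. Of 17117 genes, 1708 (9.98%) differed at an edgeR adjusted p under 0.05, with 726 higher and 982 lower in Leydig cells. *Nts* fell in Leydig cells but was at 27.2 and 27.1 CPM in control XY against 77.2 and 126 CPM in dKO XY interstitial cells, a difference of -3.05 ± 0.184. *Kcnk3*, a potassium channel gene, was at 336, 384, 379 and 498 CPM in Leydig cells and went from 74.9 and 81.4 to 32.6 and 33.3 CPM in interstitial cells (1.51 ± 0.0923). *Nrg1*, a growth factor gene, rose in Leydig cells from 15.6 and 16.4 to 28.9 and 28.0 CPM and fell in interstitial cells from 109 and 111 to 71.5 and 74.9 CPM. *Mapk13*, *Ckb*, *Agt* and *H2-K1* also differed, with interstitial log2 changes between -0.20 and 0.32 that did not pass, whereas *Kitl*, *Gsta2*, *Cxcl12* and *Col1a1* moved in both kinds of cell and showed no difference past the test. The interstitial cells of dKO XY held granulosa genes such as *Kctd14* (274 and 436 CPM against 26.2 and 46.8 CPM in control XY), so their make-up differed between genotypes. With interstitial cells that held *Pdgfra*, *Tcf21* and *Nr2f2* and fewer than 2 UMIs of *Kctd14*, *Cst9* and *Amhr2*, a choice made after seeing the data, 857 genes differed.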

How the data were processed

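Single cell mRNA sequencing was done on the 10x Genomics platform in 6 libraries, 2 for each of the 3 groups. The authors deposited UMI counts per gene and barcode for each library, and the submitters' processing notes name Cell Ranger, Seurat 4.0 and the mm10 build. The methods also name a correction for swapped barcodes. A gene missing from a library's gene list was counted as 0. Leydig cells were kept by the rule given above, and no deposited cell annotation was used. Their counts were summed per library and compared with edgeR 4.0.16 (filterByExpr, TMM, quasi-likelihood test, R 4.3.3), with *Cyp17a1*, *Cyp11a1* and *Dazl* left out of the tests. The interaction fit held both kinds of cell with the library as a block. Interstitial cells had fewer than 1000 CPM of the 2 rule genes and UMIs of at least 2 of *Pdgfra*, *Tcf21* and *Nr2f2*. Endothelial cells had the same limit on the 2 rule genes. For comparisons between cells, counts were thinned to 6000 UMIs (numpy 2.4.6). On simulated counts of this comparison, with 14335 genes, 68.4% of genes changed by 1 and 100% of those changed by 2 on the log2 scale were recovered, with 1.19% false calls. Each gene was simulated on its own with a spread set by its level alone. Genes that differ more between libraries of a group, such as *Ren1*, are not covered by these rates.

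No doublet caller was run. As an alternative, cells with at least 5 UMIs over 3 markers of another cell type and the 8% of Leydig cells with most UMIs were left out. The genes named were the markers, the 20 most restricted and 20 most variable genes, the 12 largest rises and falls among called genes whose log2 CPM averaged 5 or more, the 6 largest interactions in each direction, and members of the gene lists. Exceptions are the targeted *Amh* and genes named beside a count. Members and lists were chosen with earlier results of these data known. Alternatives were DESeq2 1.42.0, no filter on low counts, no TMM, a replicate block, other thresholds, subsets of cells and leaving out each library. Some members of the lists and of the largest falls are counted but not reported by name here.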

Additional observations from a re-analysis of the deposited data

Results flagged for a closer look

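For 12 genes the effect of the dKO in Leydig cells differed from that in interstitial cells of the same libraries, by a test of the difference itself (edgeR interaction). They are the 6 largest differences in each direction by the naming rule, and values are log2 differences, Leydig minus interstitial cells. Higher in Leydig cells were the globin genes *Hba-a1* (2.37) and *Hbb-bs* (1.79), *Kcnk3* (1.51), *Nrg1* (1.41), the neuron navigator gene *Nav1* (1.12) and the lipid phosphatase gene *Plpp3* (1.11). *Plpp3* was at 140, 162, 137 and 148 CPM in the Leydig cells of control XY 1, control XY 2, dKO XY 1 and dKO XY 2, and at 228, 226, 107 and 92.6 CPM in interstitial cells. Lower in Leydig cells were *Nts* (-3.05), *Ren1* (-2.97), *Fabp3* (-2.57), the glycoprotein hormone gene *Gpha2* (-2.26), *Sh2d4a* (-2.11) and *AC107822.6* (-2.06). *Fabp3* was at 426, 505, 457 and 556 CPM in Leydig cells, and at 4.77, 7.77, 38.8 and 40.5 CPM in interstitial cells. With interstitial cells that had few supporting cell UMIs, *Gpha2* was at -0.01, *AC107822.6* at -0.86 and *Hbb-bs* at 1.99, and these 3 no longer passed. Globin RNA was also high in the endothelial cells of the dKO XY libraries, and its part was not tested.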

How the results depend on the processing

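The count of 575 called genes became 1767 with no filter on low counts, 873 with a rule of at least 2000 CPM, 368 with at least 8000 CPM, 309 without cycling cells, 210 among cells of 15000 to 30000 CPM, and between 657 (without control XY 1) and 1140 (without dKO XY 1) when a library was left out. With a replicate block it was 1477, all 575 included, and the block raised called cholesterol genes from 6 to 21. The replicate numbers are not shown to pair the libraries. Deviations from group means correlated at 0.11 for libraries of equal number over 14533 genes. With 2 libraries a group, the value for unequal numbers is fixed at -0.11 by construction and adds nothing. The interaction count of 1708 became 2605 without the filter, 857 with interstitial cells lacking supporting cell UMIs, and 929 (without control XY 2) to 1852 (without dKO XY 2) when a library was left out. *Star* turned to 0.32 under 10% mitochondrial UMIs and to 0.19 among cells of 15000 to 30000 CPM. *Hsd3b1* turned to 0.0047 at 8000 CPM, 0.16 under 10% mitochondrial UMIs, 0.0076 without likely doublets, 0.052 without cycling cells, 0.022 without cells with a germ cell UMI and 0.15 among cells of 15000 to 30000 CPM, and ran from -0.20 to 0.13 without a library. Under 10% mitochondrial UMIs the Leydig share was 8.01% in control XY and 8.58% in dKO XY, the opposite order to all cells. The share with 3 or more mitosis UMIs was 9.80% in control XY and 17.1% in dKO XY at 4000 UMIs per cell, and 53.9% and 78.5% without thinning. The causes were not tested. The other values tallied were those of the markers, of the largest rises, falls and interactions, and of the list counts. Of these, 646 kept their call and direction or stayed within 1.5 times, and 122 list counts moved further. Another 22 values lost and 4 gained a call, and none turned direction besides those of *Star* and *Hsd3b1* above. List members outside these were not tallied, and *Gsta3* turned from -0.65 to as high as 0.08. Counts without a library come from fits with 1 library in a group and are no replicated tests. With 2 libraries a group, small differences can be missed.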
